A study of Homo sapiens with 6 samples.

Results

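The genes described here are 10 genes of squamous epithelium, TP63, TRIM29, DSG3, DSC3, PKP1, PERP, IVL, SCEL, SFN and TNS4, out of 25442 genes listed on the primary chromosomes. They were chosen by name, and each had a single entry in the deposited table. RNA-seq was performed on YAPC cells, a human pancreatic ductal adenocarcinoma (PDA) line used in the study as a model of the classical subtype, to follow the genes that respond to the transcription factor GLI2. The YAPC-iGLI2 group (3 libraries) carried human GLI2 with a Flag tag in the retroviral vector pRetroX-Tight-Puro, which is switched on by doxycycline (Dox), and the YAPC-iEV group (3 libraries) carried the same vector with no insert. All cells of both groups are named as carrying the rtTA transactivator and all were kept in Dox for 6 days, so the groups differ in the insert and not in Dox. The labels do not say whether either line is a clone, nor whether the libraries of a group came from separate cultures, and the p-values then measure only the spread between these libraries, which may be technical.

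Values are in FPKM, in which fragments are divided by transcript length and by library size, so levels can be compared between genes. Of the 10 genes, 5 averaged 1 FPKM or more across the 6 libraries and entered the test, which covered 12493 genes. The other 5 (DSG3, DSC3, PKP1, TRIM29 and IVL) stayed under 1 FPKM in all 6 libraries and are called silent here, which means a low or 0 entry in the table and not a shown absence of RNA. Total FPKM was 981344 to 1082687 in the iEV libraries and 803149 to 889559 in the iGLI2 libraries, and the number of reads behind a value is unknown, so no counting error can be given. GLI2 was at 0.344 to 0.466 FPKM in the iEV libraries and at 94.5 to 207 FPKM in the iGLI2 libraries, with replicate 1 at 0.470 of the average of the other two. Of 7 ductal epithelium markers, KRT7, KRT19, EPCAM, CDH1 and MUC1 were measured in every library (EPCAM and CDH1 called higher and MUC1 lower in iGLI2 cells), while KRT8 and KRT18, which share a locus entry, were listed at 0 in all 6 libraries. A listed 0 is therefore not read as absence. The call on CDH1 held in 2 of the 6 fits that left out a library, and those on EPCAM and MUC1 held in all 6. Summed fibroblast markers were 1.36 to 1.57 FPKM in iEV and 2.31 to 3.02 FPKM in iGLI2 cells, with DCN at 0 throughout and 1 of 6 markers (COL1A1) called higher. Summed leukocyte markers (13.6 to 17.8 and 9.36 to 17.9 FPKM) overlapped between the groups, and endothelial markers did not exceed a sum of 0.411 FPKM.

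p63, the product of TP63, is a transcription factor and the central regulator of stratified epithelia such as skin and oesophagus, where its shorter isoforms maintain the basal layer. The cells of these epithelia are held together by desmosomes, built from cadherins (desmogleins and desmocollins) and plaque proteins (plakophilins, plakoglobin and desmoplakin). Cells that leave the basal layer later assemble a cornified envelope from precursors such as involucrin. The pancreatic duct is a simple epithelium that does not keratinize, and squamous genes, TP63 among them, are known as a feature of the basal-like subtype of PDA. SCEL and TNS4 stand in the basal-like signature that the study used, which is not read as a whole here. The paper also calls S100A2 a basal-like gene and places it among the most upregulated genes of this RNA-seq. By quantitative PCR the paper reports a rise of basal-like genes in YAPC-iGLI2 cells, at an earlier time in Dox than this RNA-seq. The paper's text does not name SCEL or TNS4 there, and the time and the assay differ from those below.

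The sequences that lie just upstream of the genes are shown first, with those of SCEL, which was called lower, and of the regulator TP63 in full. RefSeq (GRCh38.p14) gave a promoter for 8 of the 10 genes. It gave none for TRIM29 and TNS4, so these genes were not searched for the motifs below. The 250 bases before the start of TP63 (chr3:189631139-189631388, plus strand, GC content 44%) and of SCEL (chr13:77535456-77535705, plus strand, GC content 37.6%) are printed 5′ to 3′, with a match to the AP-1 element in capitals.
TP63: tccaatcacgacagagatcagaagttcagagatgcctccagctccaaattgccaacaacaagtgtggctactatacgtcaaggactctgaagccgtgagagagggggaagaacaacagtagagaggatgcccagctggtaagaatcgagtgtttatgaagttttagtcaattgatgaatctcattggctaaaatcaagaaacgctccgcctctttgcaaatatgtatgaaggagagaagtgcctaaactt
SCEL: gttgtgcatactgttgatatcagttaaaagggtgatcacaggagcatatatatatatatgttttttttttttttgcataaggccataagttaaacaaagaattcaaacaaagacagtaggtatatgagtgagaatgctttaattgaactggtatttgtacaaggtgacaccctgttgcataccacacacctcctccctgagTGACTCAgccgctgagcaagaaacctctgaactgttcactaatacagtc

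The AP-1 element TGANTCA, the letters bound by JUN and FOS proteins, which regulate many genes of squamous differentiation, was found on either strand in 4 of the 8 promoters (SFN, IVL, SCEL and PERP). It was found in 6.57% of all 35116 promoters of the same length. Each match is shown here with 15 bases on either side, because no other motif given here was found in as many members, and the match is in capitals.
SFN: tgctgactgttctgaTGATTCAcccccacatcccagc
IVL: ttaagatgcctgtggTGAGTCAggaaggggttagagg
SCEL: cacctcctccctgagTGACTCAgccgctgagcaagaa
PERP: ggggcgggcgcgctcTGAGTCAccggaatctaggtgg
The windows lie at chr1:26862964-26863000 (SFN, plus strand), chr1:152908408-152908444 (IVL, plus strand), chr13:77535642-77535678 (SCEL, plus strand) and chr6:138107499-138107535 (PERP, minus strand), all in GRCh38.p14. The first base of the match was 170 bases upstream of the start of SFN, 123 bases upstream of IVL, 49 bases upstream of SCEL and 101 bases upstream of PERP. The GLI consensus GACCACCCA was searched on both strands and was found in 0 of the 8 promoters and in 0.199% of all promoters. The TATA box TATAAA was found in the IVL promoter only (10.7% of all promoters) and the E2 box CACCTG in the SFN promoter only (17.5%). None of these 4 motifs was found in the TP63 promoter printed above. The sequence before the other group of TP63 starts, described below, was not searched. A match is a description of the letters and not of binding.

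For SCEL and TNS4 the study also designed primer pairs for quantitative PCR, which show where in the transcript these genes can be read.
SCEL forward: TCGGTACAGTTCTGATGACACT
SCEL reverse: AACATGGACATGCTCCTATTGG
TNS4 forward: AGCCAGGGGCTTTTGTCATAA
TNS4 reverse: AGACGACTCGATGAGGAAGTG
In hg19 the SCEL forward primer matched coding sequence of exon 5 of 33 (chr13:78138005-78138026), and the reverse primer crossed from exon 6 to exon 7 (chr13:78141877-78142444, intron included), for a product of 114 bases. The TNS4 forward primer matched coding sequence of exon 6 of 13 (chr17:38640817-38640837) and the reverse primer exon 7 (chr17:38638622-38638642), for a product of 149 bases. The RNA-seq values below count fragments over whole genes and were not restricted to these exons.

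**Figure D1:**
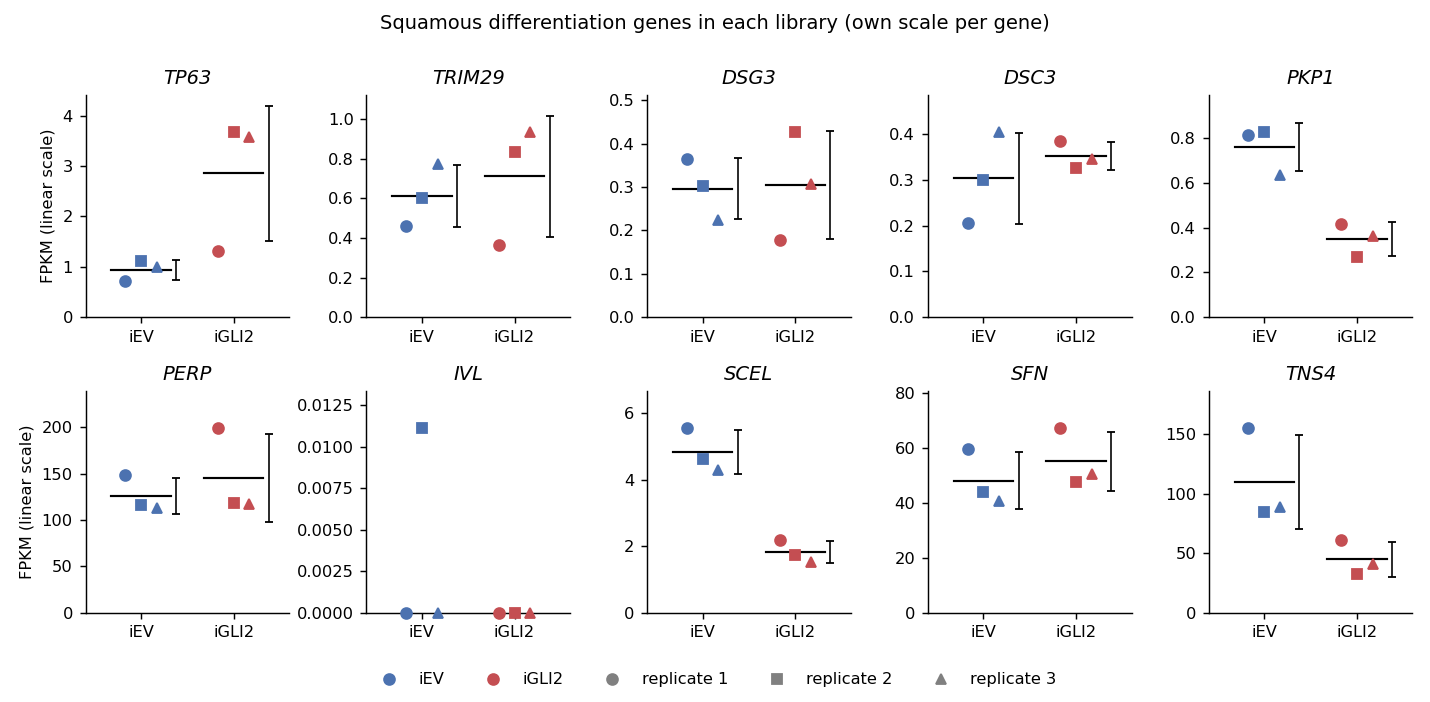
FPKM (vertical axes, linear, a scale for each gene) of the 10 genes in iEV (blue) and iGLI2 (red) libraries, with a circle, square or triangle for replicate 1, 2 or 3, a line at the mean and a bar of 1 SD beside it (no mean or SD for IVL, which is listed at 0 in 5 libraries). TP63 lay higher and PKP1, SCEL and TNS4 lay lower in every iGLI2 library than in every iEV library, and the other 6 genes overlapped between the groups.

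Of the 5 genes tested, SCEL and TNS4 fell in iGLI2 cells and no gene rose, at an adjusted p under 0.05 in limma with Benjamini-Hochberg adjustment over all genes tested. Among all 12493 genes, 11.8% were called lower and 10.1% were called higher. TP63 had the largest positive difference of the 5 and was the gene with an unadjusted p under 0.05 in that direction, but it did not pass the threshold after adjustment. The median log2 fold change of the 5 genes was 0.17 (-0.44 without TP63, which entered the test only through the iGLI2 libraries), and that of all genes tested was -0.015. In these bulk libraries, fewer cells that express a gene and less RNA per cell cannot be told apart.

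**Figure D2:**
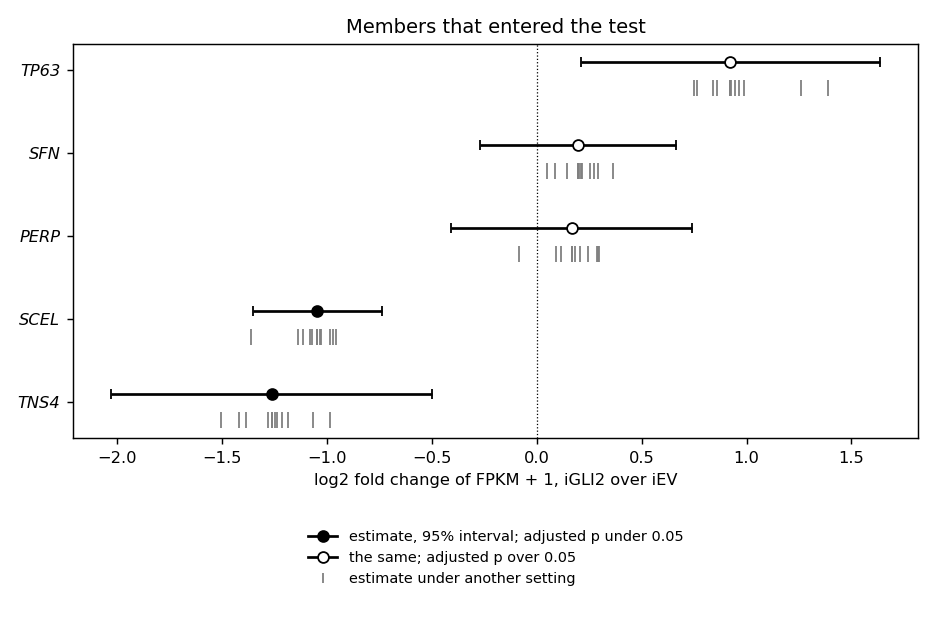
Log2 fold change of FPKM + 1, iGLI2 over iEV, for the 5 genes in the test, with the 95% interval from limma as a bar, filled circles for an adjusted p under 0.05 and a grey tick for the estimate under each other setting. The intervals of SCEL (-1.35 to -0.74) and TNS4 (-2.03 to -0.50) lay below 0, that of TP63 (0.21 to 1.64) lay above 0, and those of SFN and PERP crossed 0.

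TP63 lies at chr3:189349216-189615068 in hg19. Its level was 0.724, 1.11 and 0.989 FPKM across iEV replicates 1 to 3 and 1.31, 3.67 and 3.58 FPKM across iGLI2 replicates 1 to 3. The groups did not overlap, but iGLI2 replicate 1 stood close to the iEV libraries, at 0.360 of the average of replicates 2 and 3. The same library also had the lowest GLI2 level of the iGLI2 group. In the iEV libraries TP63 was likewise lowest in replicate 1, where GLI2 was highest. Any relation between the levels of TP63 and GLI2 was not tested. Mean FPKM was 0.941 ± 0.197 for iEV and 2.85 ± 1.34 for iGLI2 cells (SD, n = 3 each), which is a ratio of 3.03. On the log2(FPKM + 1) scale the difference was 0.92, standard error 0.29 (limma adjusted p = 0.0730). TP63 entered the test only through the iGLI2 libraries, since its iEV mean is under 1 FPKM, and 8.96% of the genes tested had a lower mean.

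TP63 passed the threshold in some of the alternatives. Without iGLI2 replicate 1 the log2 fold change was 1.26 (limma adjusted p = 0.00231), and without any other library it lay between 0.75 and 0.99 with an adjusted p from 0.158 to 0.196. With small RNA genes left out and the libraries rescaled it was 0.97 (limma adjusted p = 0.0326), while upper quartile scaling (limma adjusted p = 0.0629) and quantile normalization (0.0757) left it uncalled, and over all settings that kept the 6 libraries the adjusted p ranged from 0.0326 to 0.1001.

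TP63 has 2 groups of start sites, and the difference between them decides whether the protein has its N-terminal activation domain. In the GENCODE annotation of hg19, 5 coding transcripts start between 189349178 and 189349305 on chromosome 3 and 7 start between 189507448 and 189507590, inside intron 3 of the main transcript. The FPKM value sums both groups, so the long and the short isoforms cannot be told apart in these data. The promoter printed above belongs to the upstream starts.

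TRIM29, which encodes a tripartite motif protein of basal and squamous epithelia, lies at chr11:119981994-120008863. Its level was 0.459, 0.604 and 0.776 FPKM in the iEV libraries and 0.362, 0.836 and 0.936 FPKM in the iGLI2 libraries. The groups overlapped, and replicate 1 was the lowest library of both. With no filter on low values the log2 fold change was 0.07 (limma adjusted p = 0.794), so a difference was not detectable.

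The desmosomal cadherin genes DSG3 and DSC3 belong to the same gene cluster on chromosome 18, at chr18:29027732-29058665 and chr18:28569331-28622781. DSG3, the desmoglein of the lower layers of squamous epithelium, was at 0.364, 0.302 and 0.224 FPKM in the iEV libraries and at 0.179, 0.427 and 0.308 FPKM in the iGLI2 libraries, replicates in order. DSC3, its desmocollin partner, was at 0.205, 0.301 and 0.404 FPKM in the iEV libraries and at 0.385, 0.325 and 0.346 FPKM in the iGLI2 libraries. The groups overlapped for both genes, and with no filter on low values the log2 fold changes were 0.01 for DSG3 (95% interval -0.19 to 0.20, limma adjusted p = 0.973) and 0.06 for DSC3 (limma adjusted p = 0.599).

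The cells expressed the desmosomal cadherins of simple epithelium instead. DSG2 held a mean of 99.4% of summed desmoglein FPKM in iEV and 99.3% in iGLI2 cells, and DSC2 held 96.1% and 96.0% of desmocollin FPKM. DSG3 made up 0.667%, 0.610% and 0.452% of the desmogleins in the iEV libraries and 0.306%, 0.775% and 0.574% in the iGLI2 libraries (two-sided exact permutation p = 0.9, n = 3 each). DSC3 made up 1.70%, 3.40% and 4.51% of the desmocollins in the iEV libraries and 2.98%, 3.09% and 3.33% in the iGLI2 libraries (two-sided exact permutation p = 0.9, n = 3 each). Neither share separated the groups.

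PKP1, the plakophilin of stratified epithelium, lies at chr1:201252580-201302121. Its iEV libraries were at 0.816, 0.827 and 0.637 FPKM and its iGLI2 libraries at 0.417, 0.270 and 0.364 FPKM. Every iGLI2 library was below every iEV library, and iEV had a mean of 0.760 ± 0.107 FPKM against 0.350 ± 0.0746 FPKM for iGLI2 (SD, n = 3 each, ratio 0.460). PKP1 was too low for the test. With no filter it was lower in iGLI2 cells by a log2 difference of -0.38 (limma adjusted p = 0.0161), in a fit where 7.62% of 20035 genes were called lower.

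The other plakophilins moved in opposite directions. PKP2, which is also found in simple epithelia, rose from 12.5 ± 0.522 to 18.9 ± 1.34 FPKM (SD, n = 3 each, log2 fold change 0.55, limma adjusted p = 0.00404). PKP3, found in most epithelia, fell from 60.2 ± 1.26 to 31.4 ± 4.72 FPKM (SD, n = 3 each, log2 fold change -0.93, limma adjusted p = 0.00363). PKP2 went from a mean of 17.1% of plakophilin FPKM to 37.5%, and PKP3 from 81.9% to 61.8%. PKP1 held 1.12%, 1.11% and 0.874% in the iEV libraries and 0.934%, 0.526% and 0.647% in the iGLI2 libraries, and these shares overlapped (two-sided exact permutation p = 0.2, n = 3 each).

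PERP, a tetraspan protein of desmosomes and a target of p63, lies at chr6:138409642-138428660. It was at 148, 117 and 113 FPKM in the iEV libraries and at 199.8, 118 and 118 FPKM in the iGLI2 libraries, above the mean level of 95.1% of the genes tested. Replicate 1 was the highest library of each group, at 1.29 times the mean of the other two in iEV and 1.69 times in iGLI2 cells. The groups overlapped, and the log2 fold change was 0.17 (95% interval -0.41 to 0.74, limma adjusted p = 0.651). Without iGLI2 replicate 1 it was -0.08, so no direction is given.

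Among 10 other desmosome genes, 6 entered the test. In iGLI2 cells 1 (PKP2) was higher and 2 (PKP3 and DSP) were lower, with a median log2 fold change of 0.11. The shares over all genes tested were 10.1% called higher and 11.8% called lower. DSP, which encodes desmoplakin, went from 9.18 ± 0.555 to 7.55 ± 0.273 FPKM (SD, n = 3 each, log2 fold change -0.25, limma adjusted p = 0.0422). Its call was lost when any library was left out (limma adjusted p from 0.0597 to 0.156). The calls on PKP2 and PKP3 held in all 6 of those fits.

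IVL encodes involucrin, the scaffold of the cornified envelope, and lies at chr1:152881039-152884362. It was listed at 0 in iEV replicates 1 and 3 and in all 3 iGLI2 libraries, and at 0.0111 FPKM in iEV replicate 2. IVL sits in the epidermal differentiation complex, a cluster of cornified envelope genes. Of 43 genes within 500000 bases of IVL on either side, 38 were listed at 0 in all 6 libraries and none had a mean of at least 1 FPKM. The window is a fixed distance and not the bounds of the complex, so the count does not describe the whole complex. S100A2, given below, is not in the window.

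SCEL encodes sciellin, a precursor of the cornified envelope, and lies at chr13:78109809-78219398. Its level was 5.57, 4.62 and 4.29 FPKM across iEV replicates 1 to 3 and 2.19, 1.75 and 1.53 FPKM across iGLI2 replicates 1 to 3. Each iGLI2 library was below all iEV libraries, and replicate 1 was the highest of each group. SCEL fell from 4.82 ± 0.664 to 1.82 ± 0.339 FPKM (SD, n = 3 each), a ratio of 0.378. Its log2 fold change was -1.05, standard error 0.13 (95% interval -1.35 to -0.74, limma adjusted p = 0.00333).

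The call on SCEL held in each of the 8 other settings in which it was tested and in all 6 fits that left out a library. The estimate lay between -1.14 and -0.96 over those 6 fits, with a limma adjusted p from 0.00360 to 0.0215. SCEL is thus the cornified envelope gene of the set with a measurable level. Its AP-1 match is the one closest to the start site of the 4 shown above, and a relation of the match to the fall was not tested. SFN and PERP also have a match and were not called.

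In a list of 39 other genes of late squamous differentiation, 31 stayed under 1 FPKM in all 6 libraries and 17 of these were listed at 0 throughout. The 7 genes tested were divided, with 3 higher, 2 lower and a median log2 fold change of -0.04. For all genes tested the shares were 10.1% called higher and 11.8% called lower. SPINK5, a protease inhibitor, rose from 1.13 ± 0.0751 to 2.90 ± 0.760 FPKM, CNFN (cornifelin) from 1.42 ± 0.143 to 2.79 ± 0.606 FPKM and PPL (periplakin) from 25.2 ± 0.423 to 39.1 ± 7.63 FPKM (SD, n = 3 each, limma adjusted p = 0.0152, 0.0206 and 0.0360). These 3 calls were lost when certain single libraries were left out, SPINK5 and CNFN keeping theirs in 2 of 6 such fits and PPL in 1 of 6. DMKN (dermokine) fell from 106 ± 4.64 to 80.4 ± 1.27 FPKM and EVPL (envoplakin) from 13.1 ± 1.24 to 8.38 ± 0.661 FPKM (SD, n = 3 each, limma adjusted p = 0.00689 and 0.00787), and both calls held in all 6 fits. Envoplakin and periplakin, the partner proteins of the envelope's scaffold, thus moved in opposite directions. Of 6 markers of the skin surface, KRT10 gave nearly all of the summed level, which was 8.51 to 9.35 FPKM in iEV and 7.26 to 8.15 FPKM in iGLI2 libraries, and KRT1, KRT2 and LOR were listed at 0 throughout. KRT10 was the only one tested and was not called (limma adjusted p just over the threshold of 0.05).

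SFN encodes the 14-3-3σ protein, a regulator of the cell cycle that is made in squamous and other epithelia, and lies at chr1:27189633-27190947. It was at 59.7, 43.9 and 40.5 FPKM in the iEV libraries and at 67.3, 47.7 and 50.3 FPKM in the iGLI2 libraries. The groups overlapped, and replicate 1 was the highest of each, by a factor of 1.42 over the mean of the other two in iEV and 1.37 in iGLI2 cells. Its log2 fold change was 0.20, standard error 0.19 (95% interval -0.27 to 0.66, limma adjusted p = 0.506). SFN made up 4.37%, 3.45% and 3.24% of the summed FPKM of the 7 genes for 14-3-3 proteins in iEV libraries and 4.70%, 3.55% and 3.79% in iGLI2 libraries (two-sided exact permutation p = 0.5, n = 3 each).

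TNS4 encodes a short tensin (also called CTEN) of focal adhesions and lies at chr17:38632080-38657854. Its level was 156, 85.1 and 89.2 FPKM across iEV replicates 1 to 3 and 61.3, 32.9 and 40.7 FPKM across iGLI2 replicates 1 to 3. All iGLI2 libraries were below every iEV library, but replicate 1 stood above the others in both groups, at 1.78 times their mean in iEV and 1.66 times in iGLI2 cells. TNS4 fell from a mean of 109.9 ± 39.5 to 45.0 ± 14.7 FPKM (SD, n = 3 each), a ratio of 0.409. Its log2 fold change was -1.26, standard error 0.31 (95% interval -2.03 to -0.50, limma adjusted p = 0.0367).

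The call on TNS4 was close to the threshold. It was lost without iEV replicate 1 (log2 fold change -0.99, limma adjusted p = 0.0706), iEV replicate 2 (-1.42, 0.0752), iEV replicate 3 (-1.38, 0.0876), iGLI2 replicate 2 (-1.07, 0.114) or iGLI2 replicate 3 (-1.21, 0.112). It was kept without iGLI2 replicate 1 (-1.50, 0.0219). Of the 9 settings that kept the 6 libraries, the call held in 7. TNS4 was lower in iGLI2 cells in each of these fits.

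As a share of the tensins, TNS4 held 75.6%, 53.4% and 53.8% of the summed FPKM of 4 genes in iEV replicates 1 to 3, and 45.0%, 22.5% and 25.8% in iGLI2 replicates 1 to 3. The mean share went from 61.0 ± 12.7% to 31.1 ± 12.2% (SD, n = 3 each), and the groups did not overlap (two-sided exact permutation p = 0.1, the smallest possible). TNS3, a longer tensin, held most of the rest, at a mean of 37.5% in iEV and 67.2% in iGLI2 cells. TNS3 itself was at 47.8, 71.2 and 73.7 FPKM in the iEV and at 73.0, 111 and 115 FPKM in the iGLI2 libraries, a log2 fold change of 0.62 that did not pass the test (limma adjusted p = 0.123). No gene among the 8 other genes for 14-3-3 proteins and tensins tested was called in limma, and 2 of them (TNS3 and YWHAH) had an unadjusted p under 0.05.

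**Figure D3:**
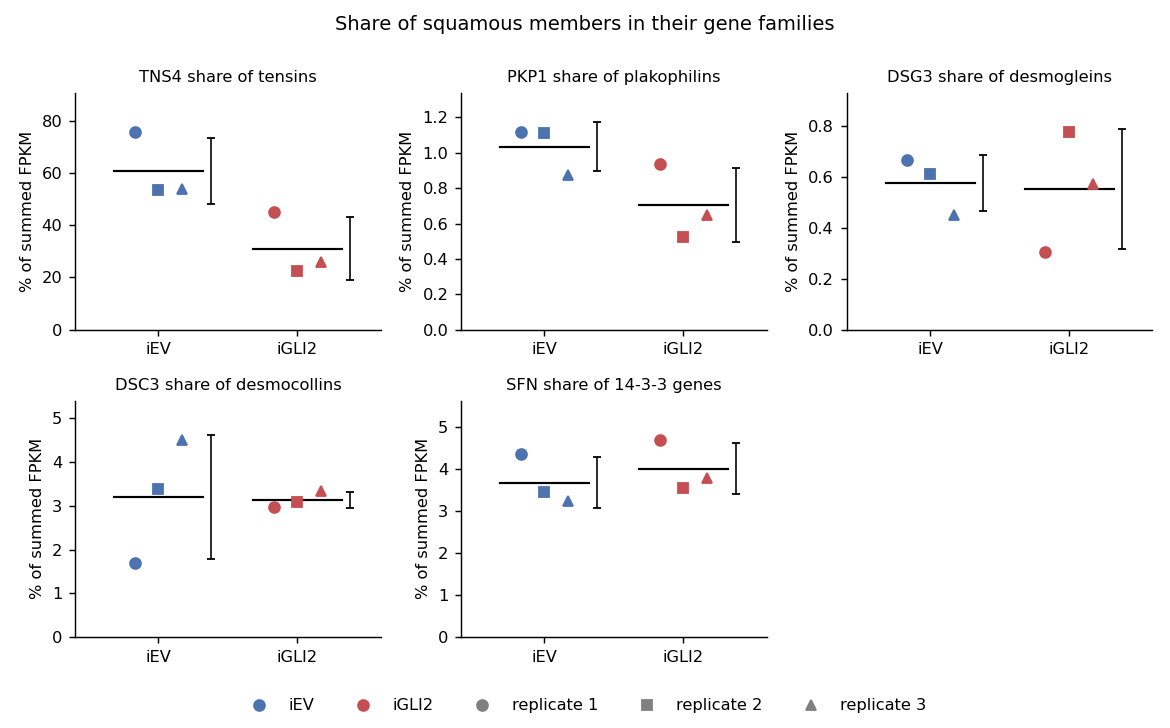
Share of a squamous gene in the summed FPKM of its gene family (%, linear axes from 0), for TNS4, PKP1, DSG3, DSC3 and SFN in iEV (blue) and iGLI2 (red) libraries, with a symbol for each replicate, a line at the mean and a bar of 1 SD. The share of TNS4 (31.1% in iGLI2 against 61.0% in iEV) separated the groups, and the other 4 overlapped.

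Over the whole set, groups that did not overlap were found for 3 of the 5 genes tested, 1 with iGLI2 above (TP63) and 2 with iGLI2 below (SCEL and TNS4). Of all genes tested, 19.2% had iGLI2 above and 22.8% had iGLI2 below in this way. TP63 entered the test only through the iGLI2 libraries, so its place above cannot be read against the 19.2%. The silent PKP1 lay below as well. PERP was at 113 FPKM or more in every library. In the iEV libraries PERP and TNS4 were the highest of the set, and their order is not separated by the spread, since TNS4 exceeded PERP in replicate 1 (156 against 148 FPKM) and lay below it in replicates 2 and 3. In iGLI2 cells PERP was above TNS4 in all 3 libraries, and SFN lay above TNS4 in all 3 as well. SCEL was above TP63 in every iEV library, and in iGLI2 replicates 2 and 3 TP63 was above SCEL.

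The genes around this set were read from lists of basal keratinocyte genes and of regulators of stratified epithelium. Of 20 basal keratinocyte genes, 12 were tested, 8 were higher and 1 was lower, with a median log2 fold change of 0.75. KRT16 and KRT6B, 2 of the 8, passed the filter on low values only through the iGLI2 libraries. Among the 10 others, 6 were higher and 1 was lower, with a median of 0.61. Of all genes tested, 10.1% were called higher and 11.8% were called lower. The list was chosen with earlier results of these data known. The paper names S100A2, which it calls basal-like, among the most upregulated genes of this RNA-seq. The count is therefore not an independent finding. S100A2, a calcium-binding protein and p63 target, rose from 8.22 ± 1.29 to 184 ± 8.56 FPKM, the Notch ligand JAG2 from 3.07 ± 0.346 to 10.2 ± 1.69 FPKM and the hemidesmosome integrin ITGA6 from 98.6 ± 7.17 to 168 ± 6.23 FPKM (SD, n = 3 each). Their limma adjusted p was 5.62e-05, 0.00126 and 0.00160. LAMA3, a chain of laminin-332, fell from 72.1 ± 1.78 to 46.7 ± 0.857 FPKM (SD, n = 3 each, limma adjusted p = 0.00112). These 4 calls held when any library was left out, but the count of 8 fell to 5 without iEV replicate 2, iGLI2 replicate 2 or iGLI2 replicate 3. COL17A1 and LAMB3 kept their calls in 1 of the 6 such fits and KRT6B in 3 of 6. The keratins of the list are named here after their values were seen, and of those tested none was called lower. KRT16 rose from 0.0417 ± 0.00372 to 6.22 ± 2.67 FPKM and KRT6B from 0.616 ± 0.204 to 2.38 ± 0.719 FPKM (SD, n = 3 each, limma adjusted p = 0.00193 and 0.0149). KRT15 was at 3.08 to 3.98 FPKM in iEV and 3.51 to 4.01 FPKM in iGLI2 libraries (limma adjusted p = 0.518). KRT5 and KRT14, the keratin pair of the basal layer, were too low for the test. KRT5 was at 0 to 0.146 FPKM over the 6 libraries. KRT14 was at 0.0891 to 0.333 FPKM in iEV and 0.345 to 0.519 FPKM in iGLI2 libraries. By immunoblot the paper reports a strong induction of KRT14 protein in YAPC cells that stably overexpress GLI2, so the assay and the line differ from those here. KRT6A, KRT17 and KRT6C also stayed under 1 FPKM in all 6 libraries. The groups overlapped for KRT6A and KRT17, and KRT6C was listed at 0 throughout. Keratin genes have near-identical copies, among which reads may be split.

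**Figure D4:**
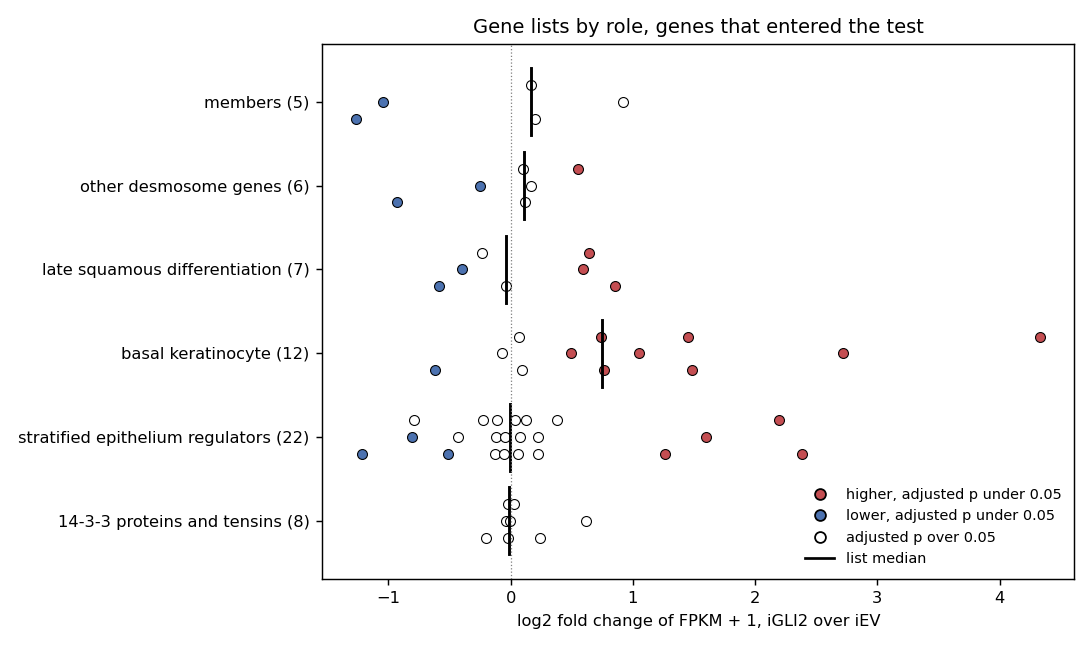
Log2 fold change of FPKM + 1, iGLI2 over iEV, of each gene that entered the test (circles), in rows by list with the number of genes tested, red for higher and blue for lower at an adjusted p under 0.05 and open otherwise, with a line at the list's median. The basal keratinocyte row has its median at 0.75, or 0.61 without KRT16 and KRT6B, and the row of members has its median at 0.17, or -0.44 without TP63. These 3 genes entered the test only through the iGLI2 libraries.

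Of 28 regulators of stratified epithelium, 22 were tested, 4 were higher, 3 were lower and the median log2 fold change was -0.0028. Over all genes tested, 10.1% were called higher and 11.8% lower, and the counts of the list were not tested against these shares. OVOL1, a zinc finger repressor, rose from 3.65 ± 1.25 to 22.9 ± 4.04 FPKM, SOX2 from 12.6 ± 1.75 to 62.7 ± 17.0 FPKM and CEBPA from 5.33 ± 0.810 to 14.2 ± 1.87 FPKM (SD, n = 3 each, limma adjusted p = 0.00133, 0.00196 and 0.00204). TFAP2A fell from 4.51 ± 0.420 to 2.14 ± 0.138 FPKM, ELF3 from 85.0 ± 0.0798 to 59.4 ± 3.70 FPKM and OVOL2 from 4.47 ± 1.47 to 1.42 ± 0.950 FPKM (SD, n = 3 each, limma adjusted p = 0.00207, 0.00391 and 0.0403). The call on OVOL2 held in 1 of the 6 fits that left out a library, and those on the other 5 genes held in all 6. SOX2 is a partner of p63 in squamous epithelium, and like TP63 and GLI2 it was lowest in replicate 1 of the iGLI2 libraries, at 43.2 FPKM against 70.4 and 74.5 FPKM. In the iEV libraries SOX2 (10.8 FPKM against 14.3 and 12.7 FPKM) and TP63 were also lowest in replicate 1, where GLI2 was highest. Among the called genes of this list, OVOL1, CEBPA and NOTCH3 were lowest in iGLI2 replicate 1 as well. ELF3 and OVOL2 were highest there, and TFAP2A lay between. A relation between the levels of GLI2, TP63 and SOX2 was not tested.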

How the data were processed

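RNA-seq was measured in 3 YAPC-iEV and 3 YAPC-iGLI2 libraries, grouped by their labels. The authors trimmed the reads with Trimmomatic, and the submitters' processing notes name TopHat2, Cuffdiff 2.1.1 and hg19. The gene annotation and the scaling between libraries are not given in the sources used here. No unit stands in the header of the deposited table, and its values were read as FPKM from their form. It held no columns of the authors' own comparisons, and 0 value columns were left without a sample. Of 27024 entries, 1252 lay off the primary chromosomes and were left out, and of entries with the same name the one with the highest mean was kept.

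The test was limma 3.58.1 (R 4.3.3) on log2(FPKM + 1) of genes that averaged 1 FPKM or more, two-sided, with an intensity trend and Benjamini-Hochberg adjustment, and genes were called at an adjusted p under 0.05. The added 1 understates the change of low genes. Shares of gene families were compared with exact permutation tests. On simulated data made from these 12493 genes, 174 of 200 changed genes were recovered (97% of those changed 4-fold and 77% of those changed 2-fold) with 11 false calls, and 0 calls were made with no gene changed. The changed genes were drawn only from those above a mean level that TP63 does not reach, so these rates do not cover TP63. Noise was drawn separately for each library, so shifts shared by replicates of the same number were not simulated. Tables, shares, sequences and plots were made in Python 3.11.15 with scipy 1.17.1 and matplotlib 3.10.9.

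The members and lists were chosen with earlier results of these data known. All 10 members are named, and from each list of other squamous genes up to 3 genes called in each direction with the smallest p, with family partners of the members. Markers of cell types were listed to check the cell line. The alternatives were upper quartile scaling, small RNA genes left out with rescaling, quantile normalization, a pseudocount of 0.1, no filter, a mean of at least 5 FPKM, a replicate block, a block by the digit in the sample code, no intensity trend and each library left out in turn. Leaving out list genes that passed the filter through 1 group only was added after seeing the data. Promoters came from RefSeq (GRCh38.p14) and were used only for their letters, and hg19 coordinates from the table and from GENCODE were not mixed with them. The share of TP63 in its gene family and a list of genes around it are not reported here.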

Additional observations from a re-analysis of the deposited data

How the results depend on the processing

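Over all genes, 2742 were called, and between 1914 and 3928 in the settings that kept all 6 libraries. Without 1 library the count ran from 1223 (without iEV replicate 2) to 3753 (without iGLI2 replicate 1), with 1303 without iEV replicate 3, 1357 without iGLI2 replicate 2 and 1510 without iGLI2 replicate 3. Leaving out small RNA genes and rescaling gave 1784 higher and 1224 lower calls (59.3% higher, against 46.0% before) and made TP63 the 1 member called higher, as did the replicate block, against 0 otherwise (0 to 1 without a library). Members called lower went from 2 to 1 with a mean of at least 5 FPKM, where SCEL was not tested, and with the sample code block, where TNS4 was lost (limma adjusted p = 0.0590), and ran from 1 to 2 without a library. With no filter the 2 were SCEL and PKP1, and TNS4 missed the threshold (limma adjusted p = 0.0514). PERP ran from -0.084 (without iGLI2 replicate 1, reversed) to 0.30 without a library.

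With a library left out, the difference in share, iGLI2 minus iEV in percentage points, ran from -0.137 to 0.0982 for DSG3 (0.0207 without iEV replicate 1), from -0.818 to 0.586 for DSC3 (0.0306 without iEV replicate 2, 0.00817 without iGLI2 replicate 1) and from -0.0132 to 0.671 for SFN, so none of these 3 has a direction. It kept its sign for PKP1 (-0.447 to -0.243) and TNS4 (-36.9 to -22.6).

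Libraries of the same number deviated together weakly (correlations across genes of 0.204, 0.0919 and 0.0276). Those of different numbers had correlations from -0.193 to 0.117, all negative but the 0.117 of iGLI2 replicate 3 with iEV replicate 2. Whether the libraries are paired cannot be told from these values or from the labels, and the main fit treats them as unpaired. The replicate block gave 3928 calls, with an adjusted p of 0.0332 for TP63 and 0.00277 for TNS4 in limma. Counting error cannot be given for any of these values, because the reads are unknown.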
